A study of Bos taurus with 6 samples.

Results

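The genes described here are bovine protein-coding genes whose 3' end was moved downstream when the authors rebuilt the gene annotation with reads from oocytes. The deposited annotation holds annotated mRNA rows and predicted mRNA rows, which a transcript discovery tool built from sequencing reads. A gene was included when its farthest predicted mRNA, on the same strand and overlapping its coding sequence, ended at least 500 nt beyond its farthest annotated mRNA. This rule took 554 of 19980 coding genes, called extended genes below, of which 551 were in the expression table. The rule used positions only and no RPKM value. It is still not blind to expression, since a gene without reads to build a predicted row could not be included. The sequenced material was single oocytes at 2 stages. MII oocytes were collected after 24 h of maturation in vitro and are arrested at metaphase of the second meiotic division. GV (germinal vesicle) oocytes were taken at aspiration of the follicles, are arrested in prophase of meiosis, and are the stage MII was set against. Both stages came from abattoir ovaries, with no other treatment named in the labels, and each is represented by 3 libraries in the deposited table. One label calls all samples matured in vitro, and stage was therefore taken from the titles. The columns GV14c and MII15c match no sample title and were used by stage alone. In turn, the titled samples GV15c and MII14 have no column of their name in that table. Nothing states that the oocytes came from different animals, or whether the letter c marks a repeat of the same oocyte, so p-values rest on the spread among these libraries alone and are too small if some are repeats.

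The 3' end of an mRNA is made by cleavage and addition of a poly(A) tail, and a gene with several cleavage sites can make mRNAs with short or long 3' untranslated regions (UTRs). In fully grown oocytes transcription is largely silent until after fertilization, and stored mRNAs are switched on or off through binding sites in the 3' UTR. There, the CPEB proteins and their partners lengthen tails during maturation, and deadenylases shorten them. A 3' UTR cut short in an annotation hides such sites and moves reads of the true end outside the gene model. The cDNA kit named in the labels primes on poly(A) tails, so a longer tail and more RNA cannot be told apart in these libraries.

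The new ends differed widely in length and in the reads behind them. The added length had a median of 3664 nt, with quartiles of 1491 and 11521 nt and a range of 505 to 622285 nt. It was under 1000 nt in 87 of the 554 genes and at least 20000 nt in 81. The farthest predicted row was supported by a median of 10 reads (quartiles 3 and 48). It rested on 1 read in 81 genes, on at most 3 reads in 170, and on at least 100 reads in 91. Here and below, supporting reads are those of the whole predicted row. Reads within the added span alone are not given. Reads that cross a splice junction stood behind 534 of the 554 ends, and in 332 of them every supporting read was spliced. The rows give only an outer start and end, with no exons, so the added span can hold introns and the added exon length is not known. A predicted row began inside the gene in 275 cases, at the annotated 5' start in 166 and upstream of it in 113. The ends thus fit the group's name by position, but 96.4% of them belonged to spliced models and 50.4% had at least 10 reads.

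**Figure D1:**
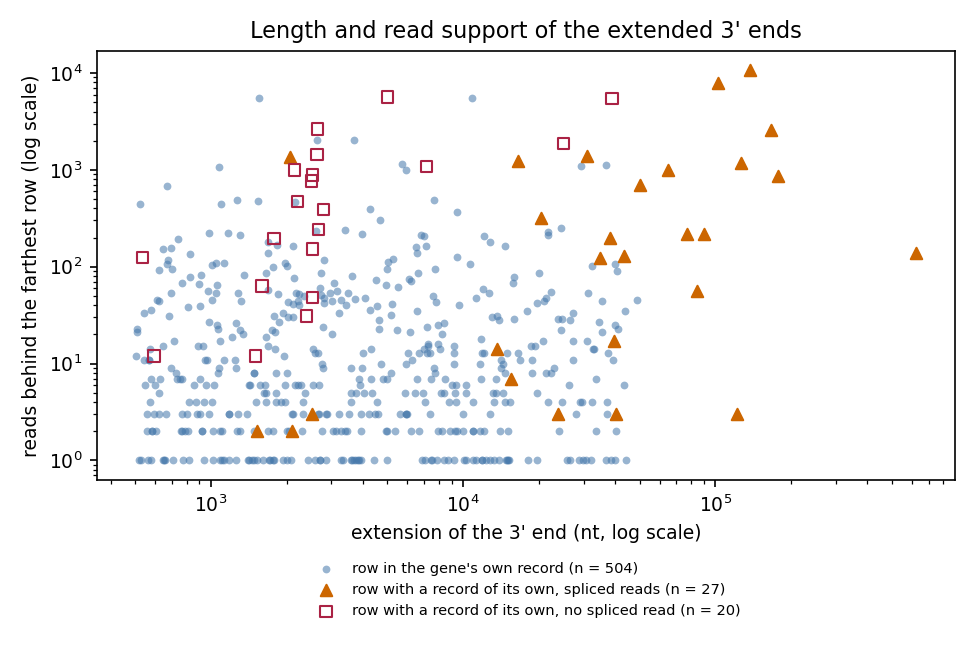
Added length of the 3' end (x, nt, log scale) against the number of reads behind the farthest predicted row (y, log scale) for the 551 extended genes in the expression table, 1 point a gene. Rows inside the gene's own record (circles) run from 1 to 5556 reads, many of them at 1 to 3 reads. Rows with a record of their own (triangles and squares) overlap them, from 2 to 10679 reads, and include the 20 rows with no spliced read.

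The predicted row lay in the record of the gene itself in 507 of the 554 extended genes. There it carried a median of 0.879% of the record's reads (quartiles 0.276% and 2.94%), at least 10% in 50 genes and at least 50% in 12. In the other 47 genes the tool gave the predicted row a separate record that enclosed the gene. Those rows began upstream of the gene in 45 of 47 cases, their median extension was 15512 nt against 3587 nt for rows in the gene's own record, and all 20 rows without a spliced read were among them. Of these 47 genes, 46 had no usable symbol in the expression table, against 5 of 504 with a row in their own record. They are named here by the annotation's own gene name or Ensembl identifier; 0 of the 51 extended genes without a symbol could be matched by identifier to the RefSeq table of assembly ARS-UCD2.0.

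The added spans ran into other genes in some cases. In 49 of the 554 genes the span overlapped coding sequence of another gene on the same strand, in 91 on the opposite strand, and in 139 on either. TUBG1, which encodes gamma-tubulin, the nucleator of microtubules, had a row that added 43824 nt, chr19:43321166-43364989 (plus strand, coordinates of the deposited annotation, whose build is not given in the sources used here), on 35 reads, all spliced. Its span covers TUBG2, a close copy of TUBG1, so reads of the pair could be split or joined between them. An annotated 3' UTR was missing altogether in 161 extended genes (29.1%), against 620 of 7141 genes (8.68%) that had a predicted mRNA and were not extended, and 5313 of 19284 (27.6%) of all genes not extended.

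Among extended genes averaging 10 RPKM or more, 4 of the 5 longest extensions belonged to rows with a separate record. RPKM divides the reads of a gene by its model length and by library depth. TEX9 was extended by 166218 nt on 2581 reads, of which 120 were spliced, at chr10:53913242-54079459 (minus strand), across MNS1 on the other strand. ENSBTAG00000002612 gained 137296 nt on 10679 reads (301 spliced). RFC1, named in the annotation for the large subunit of the clamp loader of DNA replication, gained 102539 nt on 7811 reads (683 spliced) at chr6:59972052-60074590 (minus strand), over KLHL5 and WDR19 on the other strand. A5PJC2_BOVIN gained 64941 nt on 991 reads. Whether the counting used strand is not stated, and reads of such opposite genes cannot be told apart from those of the extension without it.

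Of these 5, including TUBG1, 2 changed between stages. TUBG1 had 13.98, 2.30 and 7.04 RPKM in MII14c, MII15 and MII15c, against 51.3, 85.5 and 48.3 RPKM in GV14, GV14c and GV15. Every MII library lay below every GV library, and the log2 change was -3.04 ± 0.50 (SE, limma adjusted p = 0.00168). TUBG2 averaged 93.6 RPKM in MII and 67.3 RPKM in GV, a log2 change of 0.50 (limma adjusted p = 0.119). ENSBTAG00000002612 had 30.7, 19.9 and 36.1 RPKM in MII against 15.5, 12.04 and 11.2 RPKM in GV, with no overlap and a log2 change of 1.07 ± 0.29 (limma adjusted p = 0.0161); this call was lost without GV15 (adjusted p = 0.0544) or MII15c (0.0786). TEX9, RFC1 and A5PJC2_BOVIN had log2 changes of 0.30, 0.26 and 0.29 and limma adjusted p of 0.301, 0.363 and 0.475.

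The model length behind the RPKM values of extended genes could be checked in 55 of them, whose annotated mRNA is the coding span. Among genes whose annotated mRNA equals the coding span and that have no predicted mRNA, 98.8% of 2084 low values came within 0.1 of a whole read at the coding length and the depth recovered for each library. Depth was chosen to make this share largest in these same genes, so the 98.8% is no independent check. Some values fall within 0.1 of a whole read at any length, and that share is not given here. The share was 38.04% of 92 values in the extended genes of that kind and 57.1% of 331 values in genes with a predicted mRNA that were not extended. The lengths used by the authors are not in the files, so levels of different genes below are RPKM on an unknown model length and are not compared per length. A length that is the same in all libraries cancels from a ratio of RPKM values, but not fully from a change on log2(RPKM + 1), where it sets the level relative to the pseudocount.

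Most extended genes were expressed. Of the 551 in the table, 435 (78.9%) averaged at least 1 RPKM over the 6 libraries and were tested, against 41.3% of the 19172 genes not extended. Among these the share was 80.8% for genes with a predicted mRNA and 17.9% for genes without one; predicted rows are built from reads, so these shares follow in part from how the rows arise. Per library, 410, 383 and 407 extended genes reached 1 RPKM in MII14c, MII15 and MII15c, and 445, 460 and 422 did so in GV14, GV14c and GV15. The MII libraries were all below the GV libraries, 400 ± 15 genes against 442 ± 19 (SD, n = 3 libraries each). The whole table showed the same order, with 8087, 7170 and 7760 genes in MII and 8831, 9304 and 8401 in GV. The median of the 435 tested genes was 14.3, 10.3 and 12.9 RPKM in MII and 16.4, 17.0 and 15.2 RPKM in GV. That of tested genes not extended was 7.6, 5.2 and 6.6 RPKM in MII and 8.4, 9.1 and 7.4 RPKM in GV. None of the 551 was at 0 in all libraries.

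The shares of extended genes that changed between stages were close to those of all genes. Of the 435 tested, 63 (14.5%) were higher in MII and 114 (26.2%) lower, and 258 did not pass an adjusted p of 0.05 in limma on log2(RPKM + 1). Over all 8671 genes tested the shares were 13.4% higher (1162 genes) and 26.9% lower (2329 genes), so both shares of the extended genes lay near that background. Genes not extended gave 1068 higher and 2134 lower of 7919, or 13.5% and 26.9%. The median log2 change was -0.09 in extended genes and -0.16 in genes not extended, a difference of 0.07. Set against genes with a predicted mRNA that were not extended, whose median was also -0.09, the difference was -0.01. Genes with no predicted mRNA had a median of -0.38, and the 115 tested genes extended by less than 500 nt one of -0.04. Within single libraries the median log2(RPKM + 1) of extended genes lay 0.84 to 0.94 above that of genes not extended. That difference of levels had an SD of 0.04 between libraries of a stage. It is not a difference of changes, so its SD does not measure the spread of the 0.07. The count of higher genes depended on single libraries: it was 39 without GV14 and 33 without MII15c, and it fell to 17 in a fit, added after the values were seen, without both columns that match no title, which called 76 genes lower and lost 22 of 52 calls of genes named here. Lost lower calls were STAR, YIPF6, SNAPIN, SLC35E1 and CELF1. Lost higher calls were SKP1, OTUD6B, CHMP5, CROT, SEC62, ELAVL2, MAP3K7, MASTL, SIN3A, ENSBTAG00000002612, LIFR, ABCB10, UBR2, DDX3X, ERI2, KBTBD8 and LCOR.

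**Figure D2:**
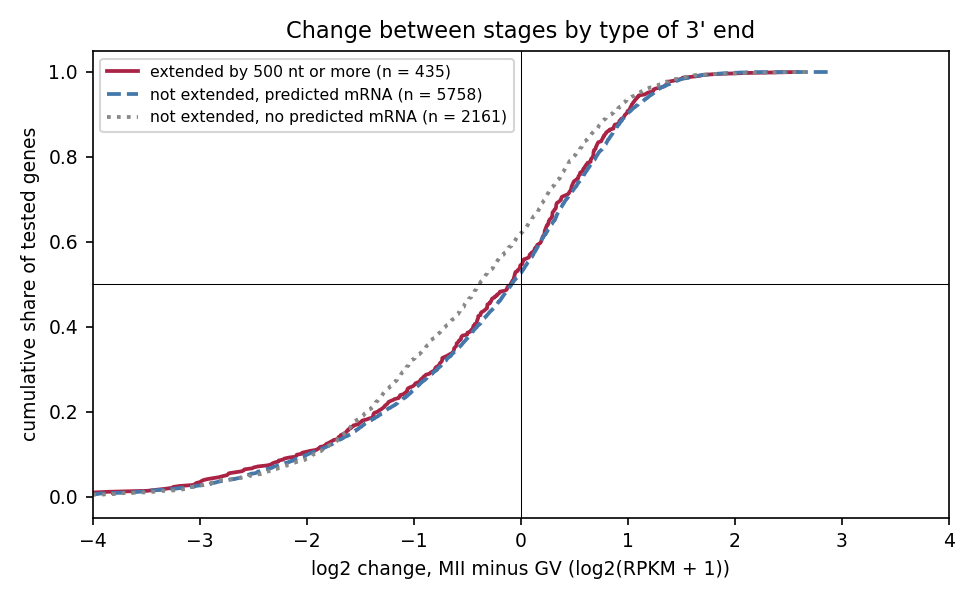
Cumulative share of tested genes (y) by log2 change, MII minus GV (x, log2(RPKM + 1)), for genes extended by 500 nt or more (solid line, n = 435), genes with a predicted mRNA that were not extended (dashed line, n = 5758) and genes with neither (dotted line, n = 2161). The solid and dashed lines lie close together, with medians of -0.09 each, and the dotted line lies to their left with a median of -0.38.

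The share of genes higher in MII went up with level in both groups. At 1 to 3 RPKM, 2.82% of 71 extended genes were higher in MII and 16.9% lower, against 1.72% and 25.04% of genes not extended. From 10 to 30 RPKM the extended genes gave 14.3% higher and 30.6% lower (n = 98), against 19.5% and 27.7%. From 30 to 100 RPKM they gave 18.7% higher and 31.9% lower (n = 91), against 26.2% and 29.9%. Above 100 RPKM they gave 28.9% higher and 27.6% lower (n = 76), against 27.0% and 29.7% of 589 genes not extended. Median log2 changes in the same 4 ranges were -0.40, -0.03, -0.11 and 0.18 for extended genes and -0.41, 0.01, 0.04 and 0.13 for genes not extended. No test of these differences was made.

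**Figure D3:**
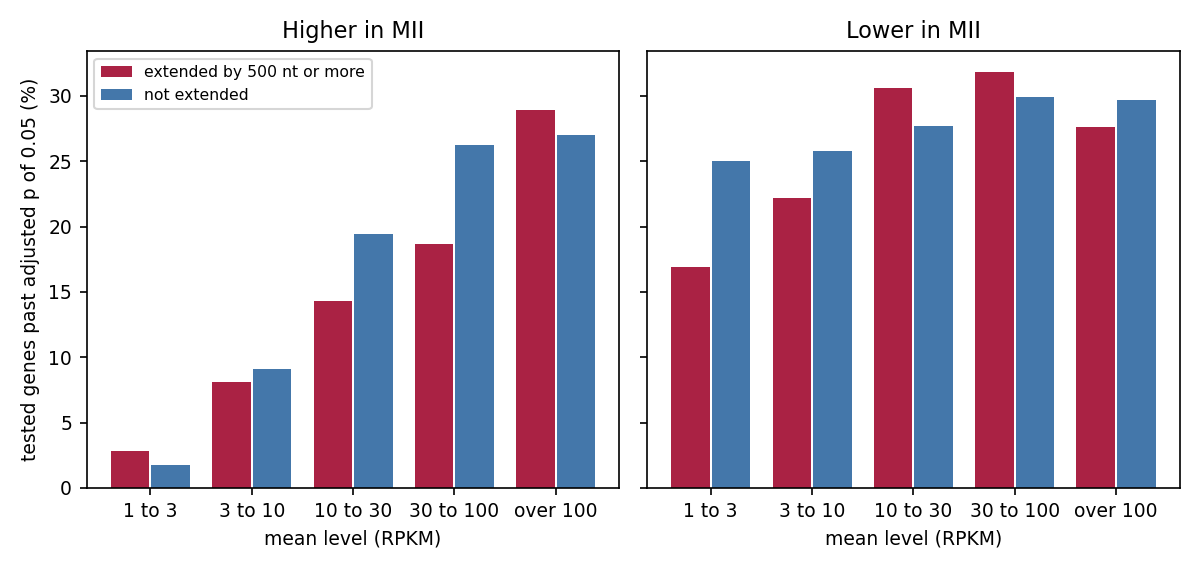
Percent of tested genes higher in MII (left) and lower in MII (right) at an adjusted p under 0.05, by mean level in RPKM, for extended genes (red bars, left of each pair) and genes not extended (blue bars). The share of higher genes climbs with level in both groups, to 28.9% of extended genes and 27.0% of genes not extended above 100 RPKM.

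Length of the extension showed no such order, while the support did. Medians of the log2 change were -0.07, -0.13, -0.30, -0.07 and 0.02 for extensions of 500 to 1000, 1000 to 2000, 2000 to 5000, 5000 to 20000 and over 20000 nt. For rows with 1 to 3, 4 to 10, 11 to 50 and over 50 supporting reads they were -0.46, -0.52, -0.01 and 0.25. In the same 4 classes 7.69%, 9.38%, 18.0% and 19.8% of genes were higher in MII and 33.0%, 34.4%, 22.1% and 19.0% lower. The median level also differed between these classes, at 6.59, 12.4, 23.9 and 28.8 RPKM. The notes do not say which libraries the supporting reads came from. Extended genes with an annotated 3' UTR had a median of -0.29 (n = 333), and those without one of 0.08 (n = 102); the values for genes not extended were -0.17 (n = 7484) and -0.07 (n = 435).

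The largest falls among extended genes lay between 3.06 and 5.03 on the log2 scale. The 12 named here are those with the largest negative log2 change among called genes that reached 10 RPKM in one stage and whose stages were fully apart. CNIH4, a cornichon protein of cargo export from the endoplasmic reticulum, had 24.6, 15.6 and 16.7 RPKM in MII14c, MII15 and MII15c, against 658, 578 and 689 RPKM in GV14, GV14c and GV15. Its log2 change was -5.03 ± 0.23 (SE, limma adjusted p = 4.87e-06), and the new end added chr16:28245539-28248345 (plus strand) on 117 reads, 114 of them spliced. POLR2I, a small subunit of RNA polymerase II, had 7.52, 3.41 and 12.5 RPKM in MII against 149, 254 and 159 RPKM in GV, a log2 change of -4.52 ± 0.40 (limma adjusted p = 7.23e-05). Its 567 nt extension overlaps OVOL3 on the other strand, which was near 0 in both stages. In both genes all MII libraries lay far below all GV libraries.

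Among the other falls, COX14, an assembly factor of cytochrome c oxidase, had 11.7, 8.55 and 12.9 RPKM in MII against 132, 126 and 141 RPKM in GV, a log2 change of -3.49 ± 0.23 (limma adjusted p = 2.13e-05). Its extension of 14836 nt rested on 1 read of the 2604 in the record. NDUFA5, a subunit of respiratory complex I, had 8.51, 10.7 and 6.83 RPKM in MII against 83.8, 103 and 99.0 RPKM in GV, with a log2 change of -3.33 ± 0.24 (limma adjusted p = 2.9e-05). The added 14880 nt of NDUFA5 cover IQUB on the same strand, which averaged 0.0737 RPKM in MII and 0.0283 RPKM in GV. BOLA3, which works in mitochondrial iron-sulfur cluster assembly, had 0.358, 0.851 and 0.727 RPKM in MII against 16.4, 14.6 and 13.0 RPKM in GV. In COX14, NDUFA5 and BOLA3 no MII value came near a GV value.

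RPL26, a protein of the large ribosomal subunit, had 9.30, 1.804 and 9.10 RPKM in MII and 78.3, 183 and 111 RPKM in GV, a log2 change of -4.15 ± 0.52 (limma adjusted p = 0.00041). Its symbol is carried by 2 genes of the table, so reads could be split between copies. CBR3, a carbonyl reductase, had 46.9, 29.0 and 25.6 RPKM in MII against 444, 546 and 472 RPKM in GV, with a log2 change of -3.85 ± 0.25. NR2C2AP, a binding partner of an orphan nuclear receptor, had 1.67, 0 and 1.98 RPKM in MII and 25.2, 41.3 and 32.0 RPKM in GV. RFXANK, opposite NR2C2AP under its added 4051 nt, averaged 1.09 RPKM in MII and 13.9 RPKM in GV and was called lower too (limma adjusted p = 0.00142). The remaining falls were LSM10, of the U7 particle that processes histone mRNA (-3.41), F1MB84_BOVIN (-3.25), HUS1, of the checkpoint clamp (-3.18), and CD164L2 (-3.06), all log2 changes. All 12 falls kept an adjusted p under 0.05 in all 17 alternative fits.

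The 12 largest rises, chosen by the same rule, lay between 1.38 and 2.59 on the log2 scale. WEE2, the oocyte-specific kinase that holds CDK1 inactive during prophase arrest, had 518, 390 and 569 RPKM in MII against 144, 188 and 130 RPKM in GV. It rose by a log2 change of 1.67 ± 0.23 (limma adjusted p = 0.000718), with every MII library above every GV library. Its predicted row added 1074 nt, chr4:105840579-105841652 (plus strand), to an annotated 3' UTR span of 3516 nt. The whole row had 1060 reads, or 6.09% of the reads of its record. CSGALNACT2, which starts chondroitin sulfate chains, had 23.7, 20.9 and 22.2 RPKM in MII and 4.34, 4.28 and 4.45 RPKM in GV, a log2 change of 2.12 ± 0.25 (limma adjusted p = 0.000289). Values within each stage differed little for this gene. SLC44A5, a choline transporter-like protein, had 42.4, 38.4 and 34.1 RPKM in MII against 10.6, 9.55 and 9.70 RPKM in GV, with a log2 change of 1.84 ± 0.23 (limma adjusted p = 0.000404). SLC44A5 had no annotated 3' UTR. The predicted row that added 4671 nt to it, chr3:69832583-69837253 (plus strand), held 7.73% of the record's reads over its whole length.

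RM33_BOVIN, named for a protein of the mitochondrial large ribosomal subunit, had the largest rise and an MII SD of 41.1 RPKM around a mean of 80.2 RPKM, with 118.6, 85.0 and 36.9 RPKM in MII and 6.97, 15.5 and 12.7 RPKM in GV. Its log2 change was 2.59 ± 0.44 (limma adjusted p = 0.00193), and 1 of the 106 reads behind its 39883 nt extension was spliced. CDK17, a cyclin-dependent kinase of the PCTAIRE group, had 44.5, 34.8 and 43.4 RPKM in MII against 18.8, 10.0 and 13.6 RPKM in GV (log2 change 1.505 ± 0.276, limma adjusted p = 0.00284). LCOR, a nuclear receptor corepressor, had 14.1, 8.64 and 12.8 RPKM in MII against 2.40, 4.04 and 4.62 RPKM in GV, with no overlap of stages. The predicted row of LCOR held 15.02% of its record's reads and its symbol is carried by 2 genes. Other rises were C4orf34 (1.70), LYPLAL1, a lysophospholipase-like protein (1.59), GPATCH2 (1.51), KBTBD8, an adaptor of cullin ligases (1.43), SESTD1 (1.38) and ERI2, an exonuclease (1.38), as log2 changes. KBTBD8 was not called by limma without GV14 (adjusted p = 0.0572), without MII14c (0.0587) or with no filter on low values (0.0512). Without both columns that match no title, KBTBD8 (adjusted p = 0.0512), LCOR (0.0697) and ERI2 (0.0852) were not called.

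**Figure D4:**
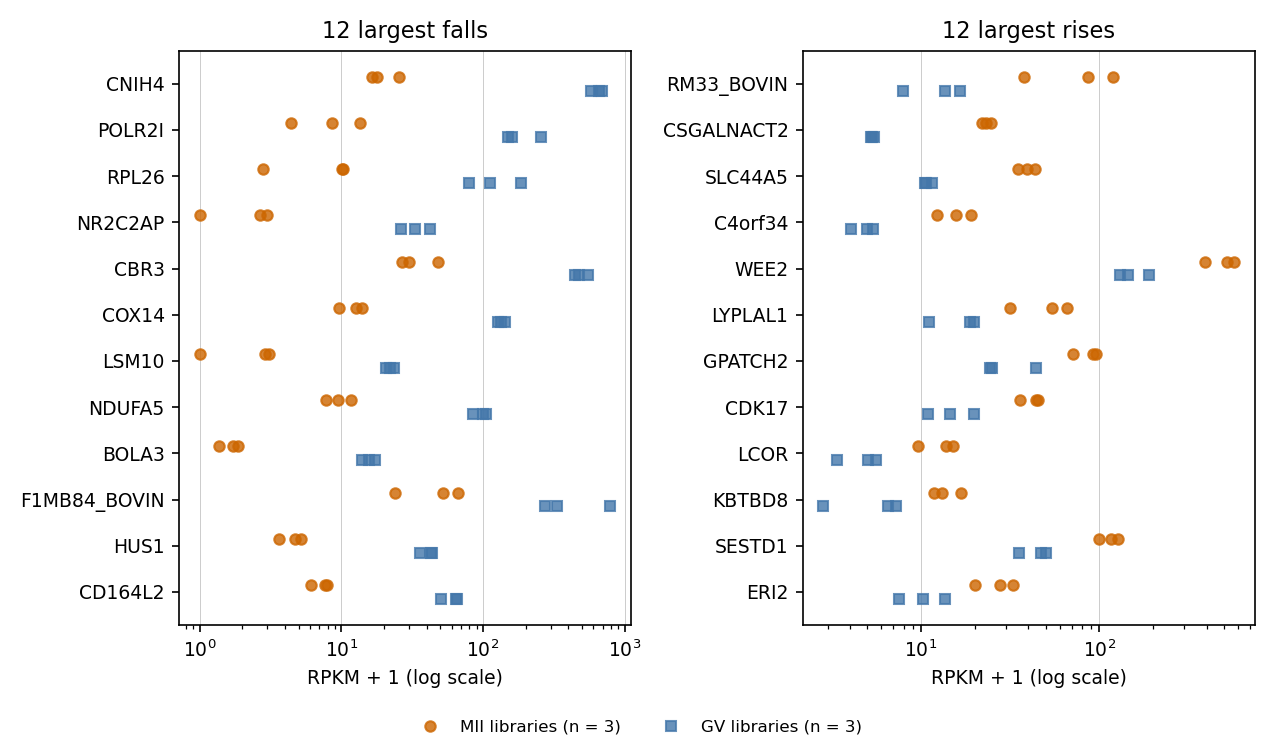
RPKM + 1 (x, log scale) in each MII library (circles, upper row of each gene) and GV library (squares, lower row) for the 12 largest falls (left) and 12 largest rises (right) among extended genes. The genes were chosen for stages that do not overlap; CNIH4 sits at 15.6 to 24.6 RPKM in MII and 578 to 689 RPKM in GV, and WEE2 at 390 to 569 RPKM in MII and 130 to 188 RPKM in GV.

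The most abundant extended genes differed in direction. SKP1, the adaptor of SCF ubiquitin ligases, had 2477, 3340 and 3154 RPKM in MII against 1674, 1841 and 2175 RPKM in GV, the highest mean among them in MII. Its log2 change of 0.65 ± 0.22 passed narrowly (limma adjusted p = 0.0398). That call was lost without any one of GV14, GV14c, GV15, MII15 and MII15c (adjusted p 0.0556 to 0.142), with median-ratio scaling (0.0806), with the replicate block (0.0581) and with no filter (0.175), and 4 genes carry its symbol. HMGN2, a nucleosome-binding protein, had 1286, 2029 and 1727 RPKM in MII and 5942, 3167 and 5446 RPKM in GV. It fell by 1.502 ± 0.295 on the log2 scale (limma adjusted p = 0.00395), and 2 genes carry the symbol. DYL1_BOVIN, named for a dynein light chain, had 718, 715 and 662 RPKM in MII against 4324, 6547 and 6106 RPKM in GV, the highest mean in GV, and a log2 change of -3.00 ± 0.22 (limma adjusted p = 3.14e-05). The annotation notes count only 98 reads in its record, 40 of them for the extended row, so its RPKM cannot come from the reads that those notes count. THAP9 had 1047, 1799 and 1327 RPKM in MII and 903, 786 and 1111 RPKM in GV, and these overlapped (log2 change 0.55, limma adjusted p = 0.11). It passed in 4 of 17 alternatives: quantile normalization (adjusted p = 0.0149), equal sums of RPKM (0.0435), library weights (0.0176) and the letter c as a term (0.0109).

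Regulators of the poly(A) tail and of stored mRNA were among the genes whose own ends were extended. Of 6 tested on this list, 2 were higher in MII, 1 was lower and 3 did not pass; over the 67 tested genes of the whole list 14 were higher and 14 lower. PAPOLG, a poly(A) polymerase, had 676, 618 and 612 RPKM in MII against 335, 337 and 320 RPKM in GV. The groups were well apart, with a log2 change of 0.94 ± 0.18 (limma adjusted p = 0.00343) that held in all 17 alternatives. ELAVL2, an RNA-binding protein of the Hu family, had 63.0, 37.6 and 46.4 RPKM in MII against 23.2, 28.0 and 26.5 RPKM in GV (log2 change 0.87 ± 0.25, limma adjusted p = 0.0224). It had no annotated 3' UTR and gained 576 nt on 7 spliced reads, and its call was lost without GV14 (adjusted p = 0.079), GV15 (0.055), MII14c (0.0718) or MII15c (0.0684). CELF1, which binds GU-rich elements and promotes deadenylation, had 7.86, 7.83 and 8.60 RPKM in MII against 14.5, 14.6 and 15.5 RPKM in GV. Its log2 change was -0.80 ± 0.24 (limma adjusted p = 0.0275), lost without any one library except MII15 (adjusted p 0.0568 to 0.0892) and with median-ratio scaling (0.0873), quantile normalization (0.127) or equal sums of RPKM (0.0593). SYNCRIP (log2 change 0.97, limma adjusted p = 0.0536), PAPD5, a noncanonical poly(A) polymerase (1.08, adjusted p = 0.132), and ZAR1L (0.03, adjusted p = 0.923) did not pass; SYNCRIP passed in 8 of 17 alternatives, among them median-ratio scaling (adjusted p = 0.00922), quantile normalization (0.00972), equal sums of RPKM (0.0372), the replicate block (0.0262) and without MII15 (0.00631).

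Cell cycle genes of meiosis on the list numbered 4 tested, with 2 higher, 1 lower and 1 not called, beside 17 higher and 9 lower of 53 over the whole list. Besides WEE2, MASTL, the Greatwall kinase that restrains the phosphatase PP2A-B55, had 65.2, 35.8 and 63.3 RPKM in MII and 23.5, 38.5 and 20.3 RPKM in GV. The stages overlapped for MASTL through MII15 and GV14c, its log2 change was 0.97 ± 0.32 (limma adjusted p = 0.0385), and the call was lost without GV14, GV15, MII14c or MII15c (adjusted p 0.112 to 0.137) and with no filter (0.0871). BUB3, of the spindle checkpoint, had 184, 123 and 150 RPKM in MII and 403, 390 and 288 RPKM in GV, with no overlap and a log2 change of -1.24 ± 0.23 (limma adjusted p = 0.00308). TTK, the checkpoint kinase, had a log2 change of -0.71 (limma adjusted p = 0.0764) and passed without GV14c (adjusted p = 0.0324) and with library weights (0.00585). CEP70, a centrosome protein, was the one tested gene on the list of chromosome, spindle and centrosome genes. It averaged 52.6 ± 9.6 RPKM in MII and 43.7 ± 9.4 RPKM in GV (SD, n = 3 libraries each) and did not pass (limma adjusted p = 0.414).

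Genes of ubiquitin transfer gave 3 higher, 0 lower and 3 not called of 6 by limma (0 lower also at an unadjusted p under 0.05), and the whole list 22 higher and 11 lower of 91. Besides SKP1, OTUD6B, a deubiquitinase whose symbol 3 genes carry, had 218, 219 and 202 RPKM in MII against 119, 150 and 137 RPKM in GV (log2 change 0.66 ± 0.19, limma adjusted p = 0.0225). UBR2, a ligase of the N-end rule, had 13.7, 7.29 and 14.9 RPKM in MII against 6.85, 3.18 and 3.50 RPKM in GV (log2 change 1.24 ± 0.38, limma adjusted p = 0.0277). Neither gene overlapped between stages. The OTUD6B call was lost without GV14, GV15, MII14c or MII15c (adjusted p 0.0562 to 0.0837), and that of UBR2 without GV14c, GV15, MII14c or MII15c (0.0787 to 0.112) and with no filter (0.0647). CDC23, a subunit of the anaphase-promoting complex, averaged 10.3 RPKM in MII and 4.65 RPKM in GV with overlap (limma adjusted p = 0.0728). It passed in 4 of 17 alternatives: without GV14 (adjusted p = 0.0343), with median-ratio scaling (0.045), quantile normalization (0.0296) and the letter c as a term (0.00983). KIF20A, a mitotic kinesin opposite CDC23 under its added 8245 nt, averaged 155 RPKM in MII and 54.1 RPKM in GV and was called higher (limma adjusted p = 0.000558).

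Chromatin regulators gave 1 higher and 0 lower of 5 tested by limma (0 lower also at an unadjusted p under 0.05), beside 18 higher and 7 lower of 80 on the whole list. SIN3A, the scaffold of a histone deacetylase complex, had 115.7, 47.5 and 89.9 RPKM in MII against 39.3, 41.8 and 33.6 RPKM in GV (log2 change 1.04 ± 0.32, limma adjusted p = 0.0291). All MII libraries lay above all GV libraries, but the call was lost without GV14, GV15, MII14c or MII15c (adjusted p 0.0715 to 0.104) and with no filter (0.0733). NCOR1, a corepressor, had 11.9% of its record's reads in its extended row and averaged 77.9 ± 12.1 RPKM in MII and 51.7 ± 13.1 RPKM in GV (SD, n = 3 libraries each; limma adjusted p = 0.0778). It passed without GV14c (0.0306), with median-ratio scaling (0.0205), quantile normalization (0.0167), equal sums of RPKM (0.0377) and library weights (0.00318). Signalling genes gave 2 higher and 0 lower of 5 (0 lower also at an unadjusted p under 0.05 in limma), beside 24 higher and 4 lower of 90. LIFR, the receptor of leukemia inhibitory factor, had 10.0, 9.25 and 6.94 RPKM in MII against 3.10, 2.03 and 5.28 RPKM in GV (log2 change 1.17 ± 0.35, limma adjusted p = 0.0255). MAP3K7, the kinase TAK1, had 9.48, 9.70 and 9.24 RPKM in MII against 6.86, 3.95 and 3.86 RPKM in GV (log2 change 0.87 ± 0.30, limma adjusted p = 0.0463). Both were higher in all 3 MII libraries. LIFR was not called without GV14, GV14c, MII14c or MII15c (adjusted p 0.0506 to 0.0801) or with no filter (0.0554), and MAP3K7 was not called without any one library except GV14 (adjusted p 0.067 to 0.142), with the replicate block (0.0513) or with no filter (0.067).

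In the remaining lists few extended genes were tested. Membrane traffic gave 1 higher and 1 lower of 5, beside 25 and 10 of 98. SEC62, of the translocon of the endoplasmic reticulum, averaged 266.9 ± 49.6 RPKM in MII and 156 ± 4 RPKM in GV (SD, n = 3 libraries each; log2 change 0.76 ± 0.20, limma adjusted p = 0.0164), and it was not called without GV14 (adjusted p = 0.052) or MII15c (0.051). YIPF6, a Golgi membrane protein, averaged 3.33 ± 0.89 RPKM in MII and 8.66 ± 0.32 RPKM in GV (SD, n = 3 libraries each; log2 change -1.18 ± 0.29, limma adjusted p = 0.0123), lost without MII15c (adjusted p = 0.0589) and with quantile normalization (0.0569). Of mitochondrial and metabolic genes, NDUFA5 was lower and the other 2 tested did not pass, beside 11 higher and 40 lower of 89. OPA1, of inner membrane fusion, passed by limma without MII15 (adjusted p = 0.00872) and with library weights (0.0055). Of ribosome and translation genes, RPL26 was lower and EIF2S3, the gamma subunit of initiation factor eIF2, was higher, with 199, 189 and 205 RPKM in MII against 79.6, 88.8 and 96.1 RPKM in GV (log2 change 1.16 ± 0.19, limma adjusted p = 0.00154). The whole list gave 6 higher and 47 lower of 84, and 4 genes carry the symbol EIF2S3. DDX3X, an RNA helicase, had 712, 303 and 544 RPKM in MII against 178, 228 and 178 RPKM in GV (log2 change 1.34 ± 0.31, limma adjusted p = 0.00818, and 0.0586 without both columns that match no title), and was the one gene called of 3 on the nuclear transport and splicing list, beside 26 higher and 8 lower of 105. HNRNPA3 on that list, whose symbol 4 genes carry, did not pass (limma adjusted p = 0.0538) and passed without MII14c (adjusted p = 0.0439).

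**Figure D5:**
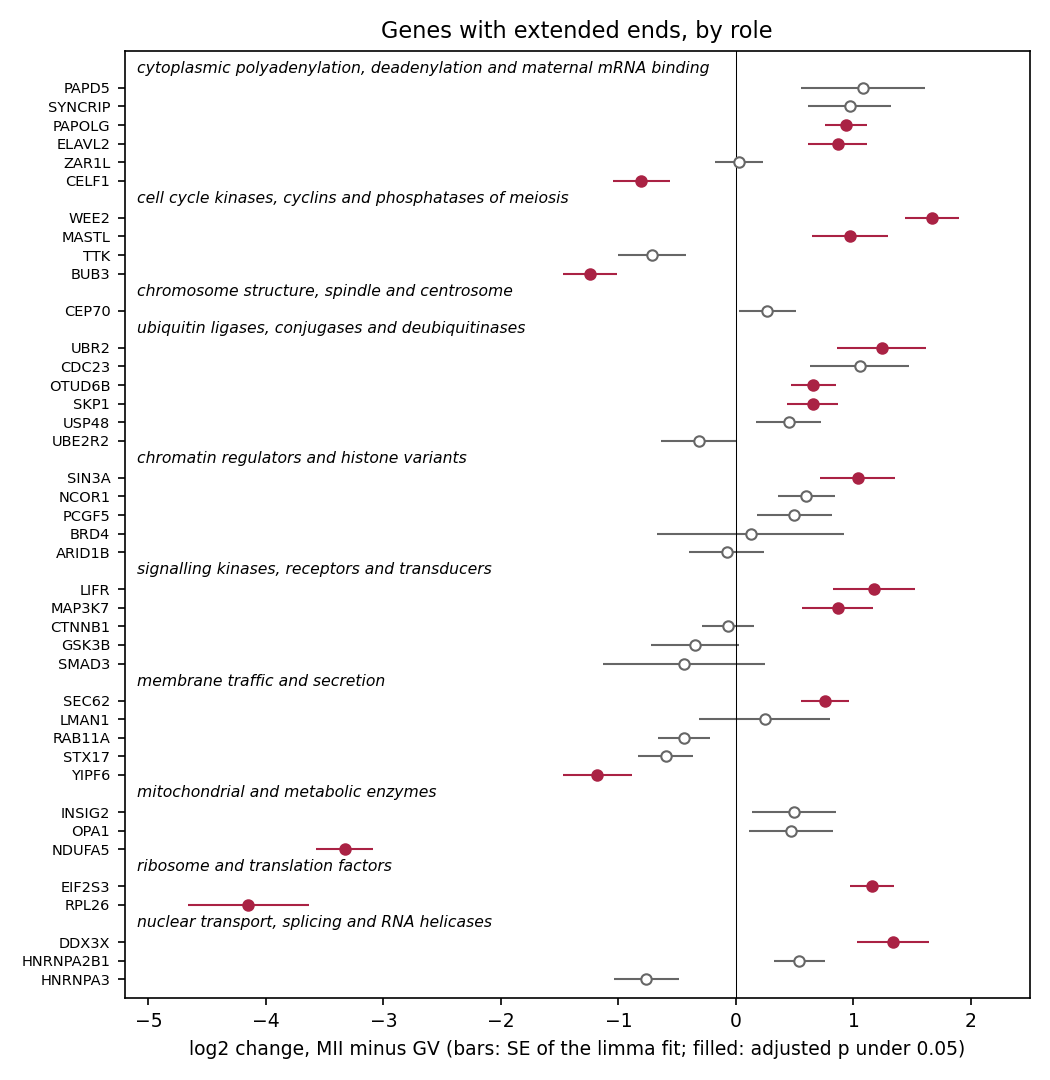
Log2 change, MII minus GV, on the log2(RPKM + 1) scale (x), with its SE from limma (bars), for the tested extended genes of each role list. Filled points passed an adjusted p of 0.05; RPL26 at -4.15 and NDUFA5 at -3.33 lie farthest to the left and WEE2 at 1.67 farthest to the right.

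A few genes stood out for the share of their record's reads in the extended row, and were picked after their values were seen. In PTP4A2, FEM1C, FHIT and CROT that row began at the annotated 5' start. It therefore covers the gene body too, and its share is not that of the new end. PTP4A2, a prenylated phosphatase, had 5556 of its record's 22763 reads (24.4%) in a row ending 1554 nt further, at chr2:122359898-122361451 (plus strand), of which 15 were spliced. It had 668, 437 and 691 RPKM in MII and 374, 481 and 332 RPKM in GV, which overlapped (log2 change 0.59, limma adjusted p = 0.0882), but PTP4A2 passed without MII15 (0.0245), with median-ratio scaling (0.0277), quantile normalization (0.0446), equal sums of RPKM (0.0415) and library weights (0.000605). FEM1C, a substrate receptor of a cullin ligase, had 5545 of 14575 reads (38.04%) in a row that added 10808 nt, with 7 spliced, and averaged 34.6 ± 11.5 RPKM in MII and 24.1 ± 5.0 RPKM in GV (SD, n = 3 libraries each; limma adjusted p = 0.228). FHIT, a dinucleotide hydrolase, had 22.9% of its record's reads in the extended row. It had 32.3, 52.0 and 28.3 RPKM in MII against 173, 86.2 and 179 RPKM in GV, a log2 change of -1.91 ± 0.34 (limma adjusted p = 0.00244). CROT, a carnitine acyltransferase of peroxisomes, had 14.3% in the extended row. It had 239, 214 and 255 RPKM in MII against 134, 145 and 152 RPKM in GV (log2 change 0.71 ± 0.19, limma adjusted p = 0.0149), a call lost without GV14 (adjusted p = 0.0556) or MII15c (0.0736). Of the 24 tested genes with at least 10% of the record's reads in the extended row, 3 were higher and 3 lower (12.5% each), against 13.4% and 26.9% of all tested genes.

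The 20 extensions without a spliced read were shorter, with a median of 2521 nt, and their whole rows had more reads, with a median of 428. ADO, an enzyme that oxidizes thiols, had 5662 reads in a row reaching 5020 nt beyond a gene with no annotated 3' UTR, and averaged 7.62 ± 3.11 RPKM in MII and 5.49 ± 0.50 RPKM in GV (SD, n = 3 libraries each). TIMM13, a chaperone of the mitochondrial intermembrane space, had 2645 reads in a row that added 2638 nt. It averaged 8.07 RPKM in MII and 14.3 RPKM in GV. KIF1B, a kinesin of organelle transport, had 887 reads in a row that added 2520 nt. It averaged 2.15 RPKM in MII and 1.67 RPKM in GV. Of the 12 tested, Q24JZ3_BOVIN with 2.07, 0.786 and 1.43 RPKM in MII against 10.4, 7.02 and 9.13 RPKM in GV was lower (log2 change -2.04 ± 0.33, limma adjusted p = 0.00157). GPN1, opposite Q24JZ3_BOVIN under its added 24959 nt, averaged 3.95 RPKM in MII and 10.7 RPKM in GV and was called lower too (limma adjusted p = 0.017). SLC35E1 was lower as well (log2 change -0.99 ± 0.32, limma adjusted p = 0.035), but not without any one library (0.058 to 0.0813), with the replicate block (0.0612), with no filter (0.072), with quantile normalization (0.214) or with a pseudocount of 0.1 (0.059). By limma 0 of the 12 were higher, and 1 at an unadjusted p under 0.05. The 31 tested genes with a separate record gave 3 higher and 6 lower (9.68% and 19.4%), against 13.4% and 26.9% of all tested genes.

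At the threshold of 500 nt, the tested genes just inside it were UHRF2 at 505 nt, ABCB10 at 508 nt and CHMP5 at 511 nt. Those just outside were SNAPIN at 485 nt, LOC285074 (named ANAPC1 in the annotation) at 473 nt and COX15 at 470 nt. UHRF2, a ubiquitin ligase that reads modified chromatin, averaged 308 ± 14 RPKM in MII and 120 ± 10 RPKM in GV (SD, n = 3 libraries each). ABCB10 averaged 32.1 RPKM in MII and 13.3 RPKM in GV, CHMP5 319.1 RPKM in MII and 203 RPKM in GV. Outside it, SNAPIN averaged 22.7 RPKM in MII and 49.3 RPKM in GV, LOC285074 7.56 RPKM in MII and 2.79 RPKM in GV, and COX15 6.58 RPKM in MII and 5.45 RPKM in GV.

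Markers of cell types touched 2 extended genes. BMP15, the oocyte growth factor, gained 11743 nt on 18 reads and had 1435, 918 and 826 RPKM in MII and 764, 869 and 743 RPKM in GV, which overlapped (log2 change 0.38, limma adjusted p = 0.245). STAR, the steroidogenic cholesterol carrier of follicle cells, had 39.7, 37.3 and 29.3 RPKM in MII against 135.6, 100.7 and 67.1 RPKM in GV, without overlap (log2 change -1.44 ± 0.28, limma adjusted p = 0.00395, and 0.0556 without both columns that match no title). The other 16 cumulus and granulosa markers in the table summed to 73.3 to 91.9 RPKM in MII and 34.6 to 41.97 RPKM in GV, higher in every MII library; with STAR the sums were 111 to 121 RPKM in MII and 105 to 170 RPKM in GV. Of the 17 in all, 8 stayed under 1 RPKM in all libraries, and AMHR2 and PTX3 were at 0. The 4 blood markers in the table summed to at most 0.201 RPKM in MII and 1.34 RPKM in GV, and those of theca and stroma to at most 5.10 RPKM in MII and 10.2 RPKM in GV. All 10 oocyte markers were present; their summed levels ran over 2892 to 3796 RPKM in MII and over 6911 to 9938 RPKM in GV, without overlap. The part of follicle cells in the STAR result was not tested. Depth, recovered from low RPKM values with 40 M reads as the upper limit of the search, was 21.15 to 32.51 M reads in MII and 20.35 to 29.92 M reads in GV.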

How the data were processed

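Per the labels' protocols, RNA of single oocytes was made into cDNA and amplified with a SMARTer ultra-low input kit and read as single Illumina reads. Adapters were diluted 1 in 30 to 1 in 50 for the titled MII samples and 1 in 10 to 1 in 30 for those of GV. Of the titled samples with an RPKM column, MII14c and MII15 were at 1 in 50, GV14 at 1 in 30 and GV15 at 1 in 10. Among these, dilution differed between stages throughout and cannot be told apart from stage. The authors deposited RPKM per Ensembl gene for 6 libraries, per the file headers, and an annotation whose header names a CLC bio transcript discovery tool. Its start and end positions are bases counted from 1. The submitters' processing notes name DESeq without a role, and aligner, counter and build: not given in the sources used here. RPKM is relative to each library's total and says nothing of total RNA per oocyte.

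Positions of mRNA and coding rows gave the extended genes, joined to RPKM by Ensembl identifier. Genes averaging at least 1 RPKM were fitted together with limma 3.58.1 in R 4.3.3 on log2(RPKM + 1), MII minus GV, with a trended prior and Benjamini-Hochberg adjustment over all 8671 genes at a threshold of 0.05. A fold change on this scale understates the change of low genes. The fit was tested on simulated data. Genes at the extremes were named by rule: 12 rises and 12 falls that reached 10 RPKM in one stage, 3 most abundant per stage, 5 longest extensions, up to 4 per role list by smallest p, and 3 on each side of 500 nt; exceptions are stated. The members and lists were chosen with earlier results of these data known. Alternatives covered the pseudocount, the filter, scaling, library weights, replicate terms, left-out libraries and membership. Depth was the value below 40 M reads at which low values of coding-only models were whole; it sets the precision of low genes, and describes counting error only, since amplified reads carry no molecular identifiers. Sequences and motifs at the ends were not analysed here.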

Additional observations from a re-analysis of the deposited data

How the results depend on the processing

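Both counts and the difference of medians were recomputed under 29 alternatives for each count and 31 for the difference. The count of extended genes higher in MII (63) became 107 with quantile normalization and 113 with library weights, 17 without both columns that match no title, 28 of 194 for extensions of at least 5000 nt, and 3 of 24 for rows with at least 10% of the record's reads. The count lower in MII (114) became 52 of 194 for extensions of at least 5000 nt, 52 of 253 for rows with at least 10 reads, and 3 of 24 for rows with at least 10% of the record's reads; these subsets hold fewer genes. Leaving out 1 library gave 33 to 74 higher, 89 to 115 lower and a difference of medians of -0.0121 to 0.091. The difference of medians, 0.07 as reported, was -0.0637 with no filter, -0.0459 at a mean of at least 5 RPKM, -0.0214 with quantile normalization, -0.0052 with the letter c as a term and 0.017 without both columns that match no title. It was -0.1207 where both groups had an annotated 3' UTR and -0.0101 for symbols carried by 1 gene. Against genes with a predicted mRNA that were not extended it was -0.0068, and against genes extended by less than 500 nt -0.0555. For rows with at least 10 reads it was 0.309 and with at least 10% of the record's reads 0.226. Its sign therefore depended on these settings, and the cause was not tested. Scaling moved the median log2 change of all genes, -0.16 as reported, to 0.00 (median-ratio), 0.22 (quantile) and -0.06 (equal sums of RPKM), and that of extended genes to 0.08, 0.20 and 0.03. The alternatives by reads, by record and without both columns were chosen after the values were seen. Same-numbered MII and GV libraries deviated with correlations of -0.23 to 0.43, so the numbers were not taken to pair them; with the replicate block the counts were 65 higher and 109 lower and the difference of medians 0.06. Over the named genes, 1186 of the repeated values kept their call, 100 lost it, 53 gained one, and 0 changed sign with a call. By level, 57 of 71 extended genes at 1 to 3 RPKM were not called, against 33 of 76 above 100 RPKM.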
